A study of Mus musculus with 8 samples.

Results

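The neurotrophin system examined here comprised 8 genes, taken by symbol from the normalized expression table: the ligand genes *Bdnf* and *Ntf3*, the receptor tyrosine kinase genes *Ntrk2* and *Ntrk3*, the p75 neurotrophin receptor gene *Ngfr*, and the sortilin-family receptor genes *Sort1*, *Sorcs2* and *Sorcs3*. All 8 were found among the 15039 genes measured by RNA sequencing of the prefrontal cortex (PFC). The 4 Rnf146-overexpressing mice had received AAV2/1-hsyn-RNF146-eGFP in the PFC of both hemispheres, and the 4 eGFP-overexpressing control mice had received AAV2/1-hsyn-eGFP in the same way. All were wild-type male C57BL/6NCrljOri mice, injected at 6 weeks of age, whose PFC was dissected 4 weeks later. The human synapsin promoter of both vectors drives expression in neurons, so cells that are not neurons were not the intended source of the transgene. The study's text says that the Rnf146 mice sequenced had first been checked for overexpression and for impaired social behavior. No such check of the eGFP mice is stated. RNF146 is a ubiquitin ligase that marks axin for degradation and thereby promotes Wnt/β-catenin signaling, and the comparison asks which transcripts differ in the PFC when it is overexpressed.

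Neurotrophins are secreted as proneurotrophins and cleaved to mature ligands. Mature BDNF signals mainly through TrkB, the product of *Ntrk2*, and neurotrophin-3, encoded by *Ntf3*, mainly through TrkC, the product of *Ntrk3*. Trk receptors recruit adaptors that feed the Ras-MAPK, PI3K-Akt and phospholipase C-γ cascades, which promote survival, dendritic growth and synaptic strengthening. The p75 receptor binds all mature neurotrophins, and together with sortilin or a related Vps10p-domain receptor it binds the proneurotrophins, which are associated with pruning and synaptic depression. In the cortex, BDNF is made mostly by excitatory neurons in an activity-dependent manner, whereas p75 in the adult forebrain is best known from cholinergic neurons of the basal forebrain, whose axons reach the PFC.

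The values were on a log2 scale, and the values of each gene had been centred within every same-numbered pair of an Rnf146 and an eGFP library, so that the measurement of a gene is its 4 pair differences (Rnf146 minus eGFP). In such values the groups do not overlap when the 4 differences share a sign. Differences are given as the mean ± SD of the 4 pairs on this log2 scale, and a gene was called when limma gave it an adjusted p no higher than 0.1. Of the 15039 genes, 1.25% were called, 0.818% higher and 0.432% lower, and 20.6% differed in the same direction in all 4 pairs. How many genes were called depended on the pairs: 188 with all 4, 421 without pair 1, 42 without pair 2, 169 without pair 3 and 14 without pair 4. The targeted gene matched the labels, since *Rnf146* read 10.35, 10.5, 10.43 and 10.47 in the eGFP libraries and 13.17, 13.01, 13.09 and 13.05 in the Rnf146 libraries. Its difference was 2.64 ± 0.13 (adjusted p = 3.2e-07), and reads of the vector's *Rnf146* are not separated from those of the endogenous gene. The markers of cortical excitatory neurons were found as the tissue label implies, all 10 of 10, with library means between 11.77 and 12.14. Markers of neighbouring regions differed between the groups as well. The 7 septal markers found were all called higher (adjusted p of *Zic1* = 0.016), and the means of the 10 striatal markers differed by -0.10, 1.32, 0.72 and 0.27 in pairs 1 to 4. These marker lists were chosen with earlier results of these data known.

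Among the 8 neurotrophin genes, *Ngfr* was higher in the Rnf146 libraries and was the only one called. *Bdnf* was lower in all 4 pairs by a similar amount but did not pass the adjusted threshold. The Trk receptors, neurotrophin-3 and the sortilin family differed by 0.08 or less. The single call among 8 members (12.5%) stood beside 1.25% of all genes. Differences in the same direction in all 4 pairs were seen for 3 members, namely *Ngfr* above the control and *Bdnf* and *Sort1* below it, beside 20.6% of all genes. The median difference of the 8 members was -0.02, compared with 0.000864 over all genes.

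**Figure D1:**
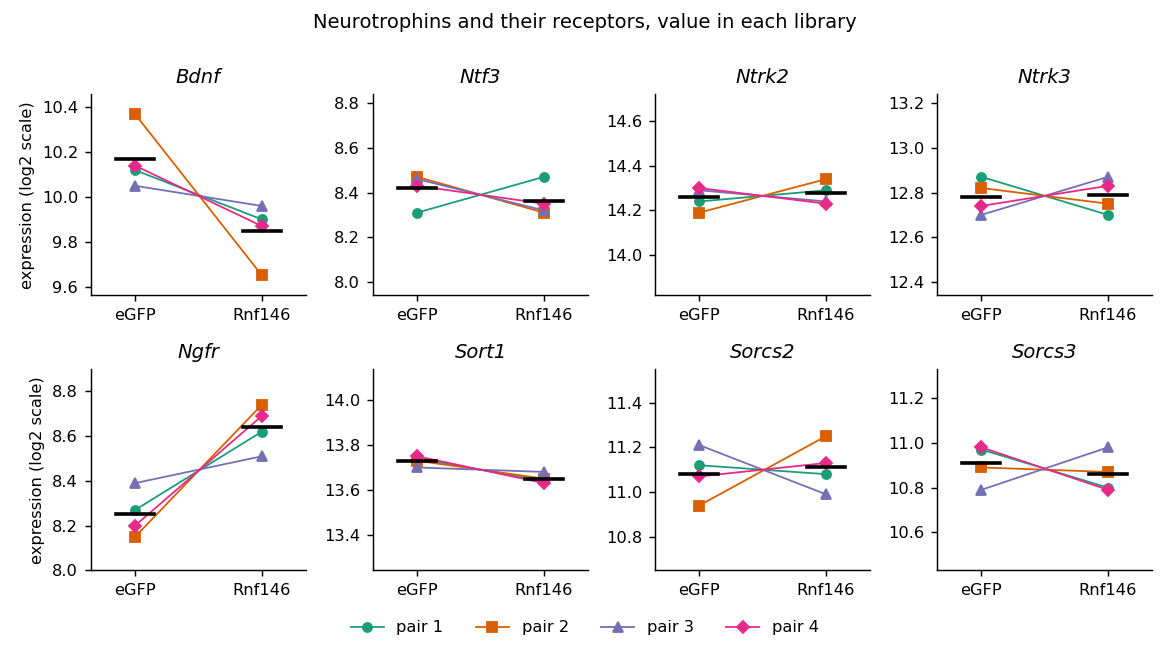
Expression of the 8 neurotrophin and receptor genes in each library on the deposited log2 scale, with the eGFP and Rnf146 libraries on the horizontal axis, lines joining same-numbered libraries and black bars at group means. The lines of *Ngfr* all rise and those of *Bdnf* and *Sort1* all descend, while each other gene has lines in both directions (lines meet midway in every panel because of the centring within pairs, and each panel spans 0.9 log2 units).

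**Figure D2:**
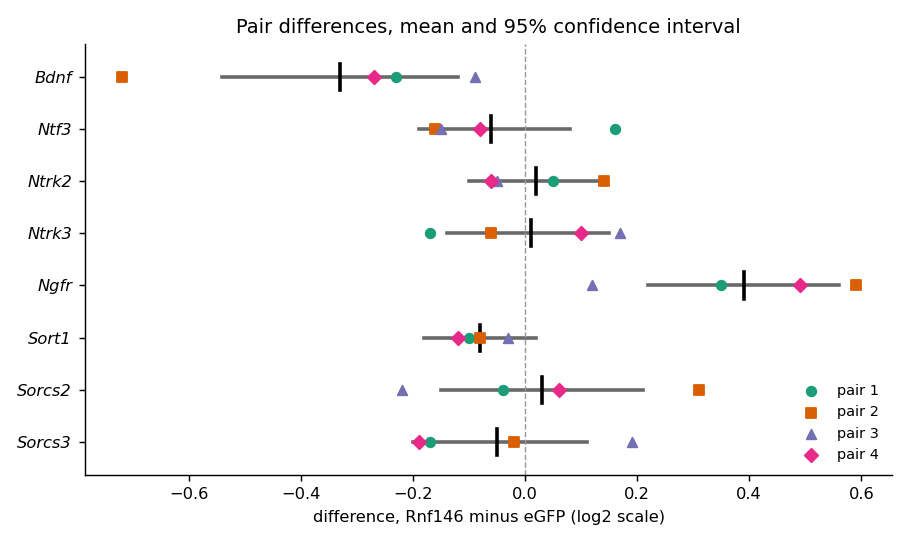
Pair differences (Rnf146 minus eGFP, log2 scale) of the 8 genes as coloured symbols, with the mean as a black bar and the 95% confidence interval of the limma fit as a grey line. The interval of *Ngfr* runs from 0.22 to 0.56 and that of *Bdnf* from -0.54 to -0.12, while the other 6 intervals include 0.

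p75 is a death-domain receptor of the TNF receptor superfamily, encoded by *Ngfr* on the minus strand of chr11:95459638-95478561 (GRCm39). *Ngfr* read 8.27, 8.15, 8.39 and 8.20 in eGFP libraries 1 to 4 and 8.62, 8.74, 8.51 and 8.69 in Rnf146 libraries 1 to 4. Every Rnf146 library lay above every eGFP library, as was so for 10.4% of all genes. The pair differences were 0.35, 0.59, 0.12 and 0.49, with the smallest in pair 3, and their mean was 0.39 ± 0.21 (95% confidence interval 0.22 to 0.56, adjusted p = 0.070). A larger absolute difference was found in 0.791% of all genes. The call was lost without pair 2 (difference 0.32, adjusted p = 0.264) and without pair 4 (difference 0.36, adjusted p = 0.322). Calls over all genes also dropped there, from 188 with all 4 pairs to 42 without pair 2 and 14 without pair 4. *Ngfr* was also among the genes with the lowest values, since its mean of 8.45 lay near the lowest gene mean of 8.20 and 7.93% of genes were below it. A log2 scale with such a floor compresses the differences of genes with few reads, and by how much was not measured.

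Because *Ngfr* was the member called, the sequence that precedes its start site is given, as annotated by RefSeq. The 250 bases lie at chr11:95478525-95478774 on the minus strand of GRCm39, read 5′ to 3′ towards the start site, and have a GC content of 70.4%. In the window of 250 bases before to 50 after the start, neither the TCF/LEF motif through which β-catenin acts (CTTTGAT or CTTTGAA, found in 8.65% of 32851 promoter windows on either strand) nor the cAMP response element TGACGTCA (1.79% of windows) was found, so the sequence carries no capitals.
Ngfr: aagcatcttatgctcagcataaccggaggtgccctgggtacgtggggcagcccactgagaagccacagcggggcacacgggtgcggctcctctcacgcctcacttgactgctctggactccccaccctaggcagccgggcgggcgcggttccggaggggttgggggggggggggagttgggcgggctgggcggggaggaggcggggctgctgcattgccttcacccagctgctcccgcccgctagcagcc

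The bulk RNA does not separate a higher *Ngfr* level per cell from a larger share of cells that express it, and markers of p75-positive cells were therefore read in the same libraries. Of 7 other markers of basal forebrain cholinergic neurons, in a list chosen with earlier results of these data known, 2 were measured. Both were called higher, beside 0.818% of all genes. Like *Ngfr*, both had low values, with eGFP means of 8.62 (*Slc5a7*) and 8.43 (*Isl1*) near the lowest gene mean of 8.2. *Slc5a7*, the choline transporter that supplies acetylcholine synthesis, differed by 0.21, 0.83, 0.37 and 0.62 in pairs 1 to 4 (0.51 ± 0.27, adjusted p = 0.065). *Isl1*, a transcription factor of cholinergic and striatal lineages, differed by 0.41 ± 0.12 (adjusted p = 0.018). Both lost the call without pair 4, with adjusted p = 0.294 and 0.150, and *Slc5a7* also without pair 2 (0.176) and pair 3 (0.105). The mean level of the 2 genes was 8.42 to 8.63 in the eGFP libraries and 8.88 to 9.09 in the Rnf146 libraries. The groups thus did not overlap, as was so for the 10.4% of all genes that were higher in all 4 pairs. The choline acetyltransferase gene *Chat*, which defines these neurons, and *Slc18a3*, *Lhx8* and *Gbx1* were not analysed here.

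The septum, which lies behind the medial PFC and holds such cholinergic neurons, had its markers higher in every pair, as were 10.4% of all genes. All 7 septal markers measured were called higher, beside 0.818% of all genes, but the list was chosen with earlier results of these data known. Their mean differences were 0.53, 0.72, 0.37 and 0.63 in pairs 1 to 4, with levels of 9.38 to 9.56 in the eGFP and 9.93 to 10.10 in the Rnf146 libraries. As in *Ngfr*, the largest difference was in pair 2 and the smallest in pair 3. Of the genes higher in all 4 pairs, 11.5% had this order. The mean of the 2 cholinergic genes was likewise largest in pair 2 (0.67) but was smallest in pair 1 (0.25). *Zic1*, a zinc finger factor of the septum, differed by 0.99 and *Prdm16* by 0.54, and without pair 4 only 1 of the 7 calls was left. The striatal markers had no call and a lowest mean difference in pair 1 (-0.10). An unadjusted p below 0.05 was found for 9 of the 10 striatal markers, beside 12.4% of all genes. *Penk* (0.77 ± 0.80) and *Drd2* (0.74 ± 0.54) differed most among them. The inhibitory markers *Gad2* (0.64, adjusted p = 0.005) and *Slc32a1* (0.53, adjusted p = 0.032) were called higher, as was *Gad1* (0.45, adjusted p = 0.019), while the other 5 interneuron markers had means below 0 and were not called. These were *Vip* (-0.23, adjusted p = 0.143), *Lhx6* (-0.11), *Adarb2* (-0.11), *Sst* (-0.06) and *Pvalb* (-0.03). *Vip*, *Lhx6* and *Adarb2* were lower in all 4 pairs, as were 10.2% of all genes. Of the 3 called, only *Gad2* was called whichever pair was left out.

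Markers of glia, vessels and meninges had no call in the limma fit. An unadjusted p below 0.05, found in 12.4% of all genes, was reached by all 8 oligodendrocyte markers. *Mbp* differed by 0.51 ± 0.58, and the mean of the 8 markers differed by -0.15, 0.49, 0.92 and 0.55 in pairs 1 to 4. Of the precursor markers, *Olig2* (0.21) and *Vcan* (0.06) differed most. None of 8 astrocyte and none of 8 endothelial and mural markers had an unadjusted p below 0.05, the most different being *Gfap* (-0.13), *Sox9* (0.11), *Rgs5* (0.11) and *Abcc9* (0.09). Of 7 microglial markers 3 reached it, with *Csf1r* (-0.35) and *C1qa* (-0.24) differing most, and of 7 leptomeningeal markers 1 did, with *Slc6a13* (-0.22) and *Igf2* (-0.15) differing most. The part of any of these cell populations, neuronal or not, in the *Ngfr* result was not tested.

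**Figure D3:**
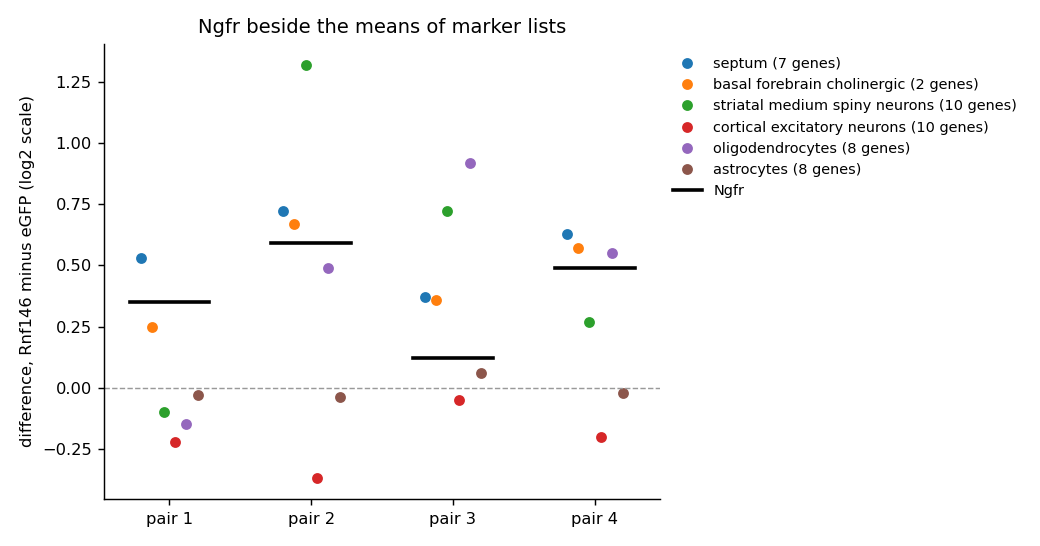
Difference of *Ngfr* in each pair (black bars, Rnf146 minus eGFP, log2 scale) beside the mean differences of 6 marker gene lists (points). The septal and the cholinergic means lie above 0 in every pair, as *Ngfr* does, the cortical excitatory mean lies below 0 in every pair, and the striatal and oligodendrocyte means are below 0 in pair 1 and above 0 in the other pairs.

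BDNF, the principal activity-regulated neurotrophin of the cortex, is encoded on the plus strand of chr2:109505045-109557475. *Bdnf* read 10.12, 10.37, 10.05 and 10.14 in eGFP libraries 1 to 4 and 9.90, 9.65, 9.96 and 9.87 in Rnf146 libraries 1 to 4. All 4 Rnf146 libraries lay below all 4 eGFP libraries, as was so for 10.2% of genes, with 10.4% the other way. The pair differences were -0.23, -0.72, -0.09 and -0.27, with a mean of -0.33 ± 0.27 (95% confidence interval -0.54 to -0.12), and 1.31% of genes had a larger absolute difference. The difference did not pass the threshold (unadjusted p = 0.00714, adjusted p = 0.202), and flipping the signs of the 4 pairs, an exact test, gave p = 0.125, the smallest two-sided value it can give. Pair 2 carried much of it, since the mean was -0.20 without that pair (adjusted p = 0.453). When the 8 libraries were taken as independent, *Bdnf* passed (adjusted p = 0.033), but so did 21.5% of all genes, 10.4% being lower.

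*Bdnf* is transcribed from many alternative promoters, each with its own first exon spliced to a shared coding exon, and GENCODE vM39 lists 18 transcripts with 16 start sites. The table sums them, so the promoter behind the difference was not resolved. The promoter of exon IV is the one best known to respond to calcium influx and neuronal activity, and among the 7 *Bdnf* windows of RefSeq it is the only one with the cAMP response element variant TCACGTCA, which 0.441% of all windows hold. The 250 bases before its start lie at chr2:109522531-109522780 on the plus strand of GRCm39, and the capitals mark this element, which begins 38 bases upstream of the start site. No full element (TGACGTCA) or TCF/LEF motif was found in the 7 windows.
Bdnf exon IV: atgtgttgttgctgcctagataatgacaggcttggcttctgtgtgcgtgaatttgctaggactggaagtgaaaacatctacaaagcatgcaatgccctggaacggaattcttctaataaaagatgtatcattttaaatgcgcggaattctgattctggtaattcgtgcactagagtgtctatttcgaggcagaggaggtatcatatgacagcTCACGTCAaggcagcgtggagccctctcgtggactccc

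The genes that act on *Bdnf* transcription at any of its promoters, or that are known to follow BDNF signaling and neuronal activity, were read from lists. Of 16 regulators of *Bdnf* transcription none was called, and the median difference was -0.03. An unadjusted p below 0.05 was found for 3 of the 16, beside 12.4% of all genes. *Npas4*, an activity-induced transcription factor that binds *Bdnf* promoters, came closest, with differences of -0.66, -0.76, -0.21 and -0.21 (-0.46 ± 0.29, adjusted p = 0.104). When each library was centred on its median, *Npas4* passed the limma threshold (adjusted p = 0.098). *Bhlhe40*, a repressor (-0.26 ± 0.32, adjusted p = 0.363), and *Mef2c*, an activity-regulated factor (-0.14 ± 0.14, adjusted p = 0.400), were the next in size.

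Of 12 genes induced by BDNF or by neuronal activity, 2 fell (16.7%, beside 0.432% of all genes called lower) and 10 did not pass. The list was chosen with earlier results of these data known. *Fos*, an immediate-early transcription factor, differed by -0.38, -0.85, -0.29 and -0.52 (-0.51 ± 0.25, adjusted p = 0.051). *Junb*, its partner in AP-1, differed by -0.22, -0.71, -0.46 and -0.37 (-0.44 ± 0.21, adjusted p = 0.056). Neither call outlasted the loss of pair 2 (adjusted p = 0.102 and 0.151) or pair 4 (0.245 and 0.241), and that of *Junb* was also lost without pair 3 (0.131). Of the others, *Arc*, which acts in AMPA receptor endocytosis, differed most (-0.50, -1.46, -0.20 and -0.47 in pairs 1 to 4, adjusted p = 0.167), followed by *Nr4a1* (-0.47 ± 0.32, adjusted p = 0.118) and *Nptx2* (-0.33 ± 0.30, adjusted p = 0.221). The mean difference lay below 0 for 11 of the 12 genes, and the median of the list was -0.30. Like *Bdnf*, the list had its largest mean difference in pair 2 (-0.55) and its smallest in pair 3 (-0.09). Of the genes lower in all 4 pairs, 12.1% had this order. The means of the cortical excitatory and the microglial markers had it as well, so the order was not particular to the activity-responsive genes.

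Excitatory cortical neurons, the main source of cortical *Bdnf*, were read from 10 markers. These had mean differences of -0.22, -0.37, -0.05 and -0.20, with levels of 11.98 to 12.14 in the eGFP and 11.77 to 11.94 in the Rnf146 libraries. Of the 10 markers, 2 were called lower (20%, beside 0.432% of all genes), in a list chosen with earlier results of these data known. *Slc17a7*, the vesicular glutamate transporter, differed by -0.30 ± 0.14 (adjusted p = 0.092) and *Neurod2* by -0.30 ± 0.13 (adjusted p = 0.069), while *Cux2* differed most (-0.35 ± 0.21, adjusted p = 0.113). Neither call was left without pair 2 or without pair 4, and that of *Slc17a7* was also lost without pair 1 (adjusted p = 0.111). The part of the share of excitatory neurons in the *Bdnf* difference was not tested.

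**Figure D4:**
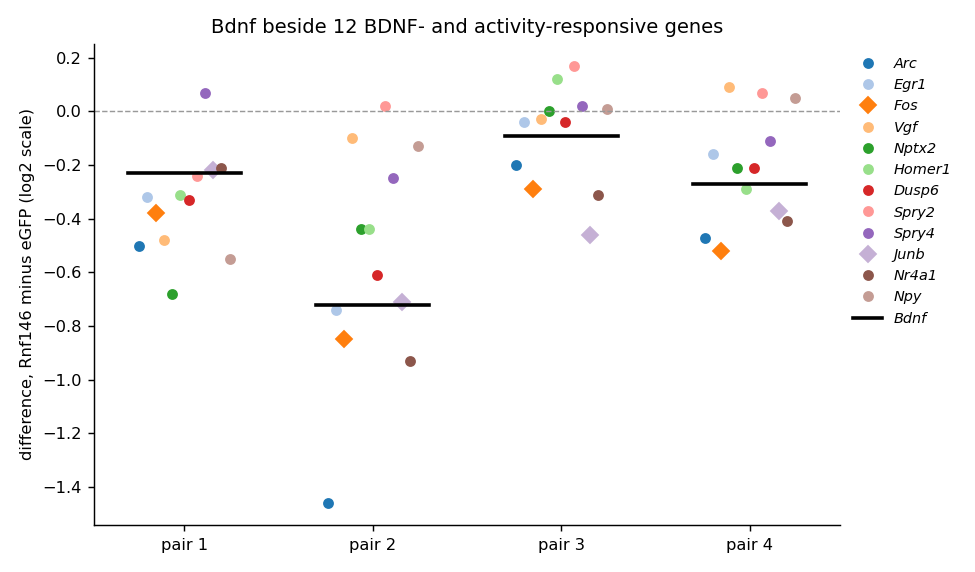
Difference of *Bdnf* in each pair (black bars, Rnf146 minus eGFP, log2 scale) beside the 12 BDNF- and activity-responsive genes (points, with diamonds for *Fos* and *Junb*, the 2 called). The bar lies lowest in pair 2, at -0.72, and nearest to 0 in pair 3, at -0.09, and *Fos* and *Junb* lie below 0 in all 4 pairs.

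Neurotrophin-3, the second ligand, is known mainly from development and from dentate granule cells in the adult brain. *Ntf3* (chr6:126078375-126143873, minus strand) read 8.31, 8.47, 8.46 and 8.43 in eGFP libraries 1 to 4 and 8.47, 8.31, 8.32 and 8.35 in Rnf146 libraries 1 to 4. The groups overlapped, with pair 1 above the control and the other pairs below it, and the difference was -0.06 ± 0.15 (adjusted p = 0.752). Its mean of 8.39 was close to the lowest gene mean, with 5.86% of genes below it. A TCF/LEF motif lay 193 bases upstream of the start in 1 of its 2 RefSeq windows.

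No difference was detected in the Trk receptors. *Ntrk2* (chr13:58954176-59281784, plus strand) encodes full-length TrkB of neurons and a truncated form without kinase domain that is abundant in astrocytes. It read 14.24, 14.19, 14.29 and 14.30 in eGFP libraries 1 to 4 and 14.29, 14.34, 14.24 and 14.23 in Rnf146 libraries 1 to 4, a difference of 0.02 ± 0.10 (95% confidence interval -0.10 to 0.14, adjusted p = 0.925). The groups overlapped, 2 pairs being above the control and 2 below. GENCODE vM39 lists 40 transcripts of the gene, and a shift between the kinase and the truncated form would not be visible in a gene sum. The 8 astrocyte markers had no call either, with mean pair differences of -0.03, -0.04, 0.06 and -0.02.

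*Ntrk3* (chr7:77825707-78387760, minus strand) read 12.87, 12.82, 12.70 and 12.74 in the eGFP and 12.70, 12.75, 12.87 and 12.83 in the Rnf146 libraries. Pairs 1 and 2 were below the control and pairs 3 and 4 above it, and the difference was 0.01 ± 0.16 (95% confidence interval -0.14 to 0.15, adjusted p = 0.976). The difference of *Ngfr* exceeded that of *Ntrk2* in all 4 pairs, by 0.31, 0.45, 0.17 and 0.56 (0.37 ± 0.17, exact sign-flip p = 0.125, the smallest possible), a contrast chosen after the values had been seen.

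The sortilin family showed small differences. Sortilin, the proneurotrophin co-receptor of p75 and a sorting receptor for BDNF, is encoded by *Sort1* (chr3:108191285-108268842, plus strand). It read 13.74, 13.73, 13.70 and 13.75 in the eGFP and 13.64, 13.65, 13.68 and 13.63 in the Rnf146 libraries. The groups did not overlap, as was so for the 10.2% of all genes that were lower in all 4 pairs. The difference was only -0.08 ± 0.04 (95% confidence interval -0.18 to 0.02) and did not pass the test (adjusted p = 0.497). *Sorcs2*, which binds p75 and proBDNF (chr5:36174509-36555545, minus strand), read 11.12, 10.94, 11.21 and 11.07 in the eGFP and 11.08, 11.25, 10.99 and 11.13 in the Rnf146 libraries, with overlap and a difference of 0.03 ± 0.22 (adjusted p = 0.925). *Sorcs3*, a postsynaptic sorting receptor (chr19:48194464-48793944, plus strand), read 10.97, 10.89, 10.79 and 10.98 in the eGFP and 10.80, 10.87, 10.98 and 10.79 in the Rnf146 libraries, again with overlap and a difference of -0.05 ± 0.18 (adjusted p = 0.831).

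For the 6 genes other than *Ngfr* and *Bdnf*, the 95% confidence intervals lay between -0.20 and 0.21, and for 5 of them the SD of the pairs exceeded the absolute mean. The remaining relatives measured had no call. *Sorcs1* differed by 0.10 ± 0.06 (adjusted p = 0.434) and was higher in all 4 pairs, as were 10.4% of all genes. *Sorl1* differed by -0.09 ± 0.15 (adjusted p = 0.579) and *Nradd*, a p75 homolog, by -0.01 ± 0.05 (adjusted p = 0.933). *Ntf5* was not analysed here.

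Of the enzymes and inhibitors that govern the step from proneurotrophin to mature ligand, 10 of 14 listed genes were measured and none was called, with a median difference of -0.04. Unadjusted p values below 0.05 were found for 2 of them, beside 12.4% of all genes. The prohormone convertase gene *Pcsk1* differed by -0.21, -0.47, -0.06 and -0.20 (-0.24 ± 0.17, adjusted p = 0.202). *Plat*, the tissue plasminogen activator that starts extracellular cleavage of proBDNF, differed by -0.13 ± 0.10 (adjusted p = 0.388), and *Pcsk2*, a second convertase of the regulated secretory pathway, by -0.06 ± 0.07 (adjusted p = 0.639).

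Downstream of the Trk receptors, 1 of 40 signaling genes was called (2.5%, beside 1.25% of all genes). *Rap1a*, a small GTPase that sustains MAPK activation by Trk receptors, rose by 0.28, 0.26, 0.30 and 0.25 in pairs 1 to 4 (0.27 ± 0.02, 95% confidence interval 0.17 to 0.37, adjusted p = 0.043). The 4 pairs agreed closely, although the adjusted p was 0.182 without pair 2, 0.109 without pair 3 and 0.241 without pair 4, with differences of 0.26 to 0.28. The adaptor genes *Gab1* (0.26 ± 0.17, adjusted p = 0.160) and *Frs3* (0.16 ± 0.09, adjusted p = 0.265) and the phosphatase gene *Ptpn11* (0.15 ± 0.15, adjusted p = 0.374) did not pass. The median of the list was 0.00, and 8 of the 40 genes had an unadjusted p below 0.05, beside 12.4% of all genes.

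Among 26 partners and effectors of p75, only *Lingo1* was called (3.85%, beside 1.25% of all genes), and it fell. LINGO-1 joins p75 and the Nogo receptor in a complex that transmits myelin-derived inhibition of axon growth. *Lingo1* differed by -0.44, -0.36, -0.22 and -0.28 (-0.32 ± 0.09, adjusted p = 0.038), and the adjusted p was 0.187 without pair 2 and 0.223 without pair 4. *Rtn4r*, the Nogo receptor gene of the same complex, differed by -0.42, -0.47, -0.14 and -0.13 (-0.29 ± 0.18, adjusted p = 0.134). *Mag*, a myelin ligand of that receptor made by oligodendrocytes, differed by -0.32, 0.64, 0.93 and 0.61 (0.47 ± 0.54, adjusted p = 0.307), like the mean of the 8 oligodendrocyte markers, of which it is one (-0.15, 0.49, 0.92 and 0.55). *Mapk9*, the JNK2 gene, differed by 0.16 ± 0.12 (adjusted p = 0.269), and the median of the list was 0.01.

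**Figure D5:**
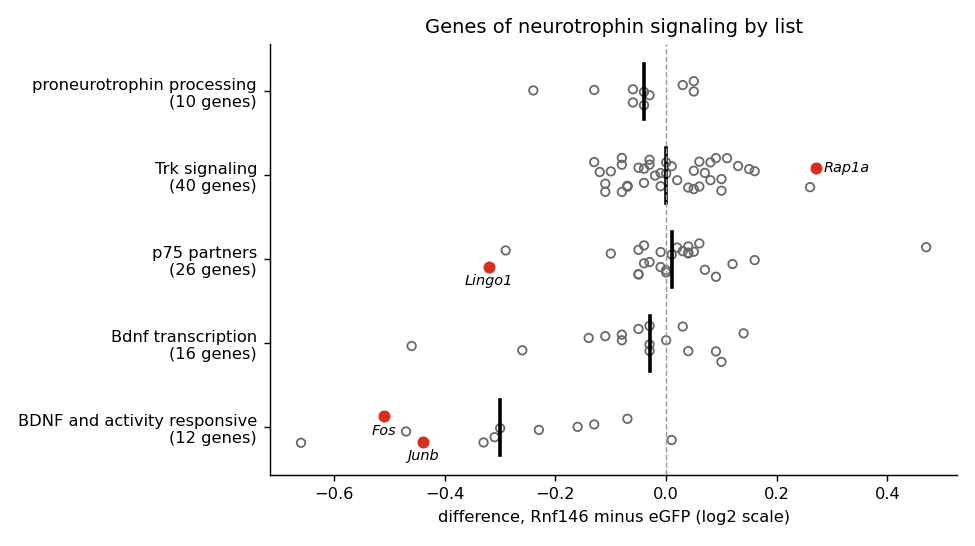
Mean difference (Rnf146 minus eGFP, log2 scale) of each gene in 5 lists of neurotrophin signaling, with filled red points for the 4 genes called and black bars at list medians. The medians of 4 lists lie between -0.04 and 0.01, that of the BDNF- and activity-responsive genes lies at -0.30, and *Rap1a* is the only called gene to the right of 0.

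Over these lists and the other relatives, 107 of 114 genes were measured and 4 were called (3.74%), 1 higher and 3 lower, beside 1.25% of all genes, and none of the 4 calls was left without pair 2 or without pair 4.

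The genes whose 4 pair differences were nearest to those of *Ngfr*, by Euclidean distance over the 4 pairs and among all genes, were *Dlx6* (distance 0.15), *Necab2* (0.17), *St8sia6* (0.18), *Col25a1* (0.21) and *Usp29* (0.22). *Dlx6* encodes a homeodomain factor of forebrain GABAergic neurons and differed by 0.39, 0.49, 0.07 and 0.40. Nearest to *Bdnf* were *Hkdc1* (0.09), *Egr1* (0.15), *Slc30a3* (0.17), *Dusp6* (0.17) and *Ephb3* (0.18). *Egr1*, an immediate-early factor, and *Dusp6*, a MAPK phosphatase, belong to the activity-responsive list, and *Slc30a3* encodes the transporter that loads zinc into the vesicles of excitatory terminals. These genes were selected for their likeness, so their differences are a description.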

How the data were processed

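RNA of the dissected PFC was sequenced from 4 Rnf146 and 4 eGFP libraries prepared with a TruSeq stranded mRNA kit. Cutadapt was used by the authors for trimming and Salmon 1.9.0 for quantification against GENCODE vM30 (GRCm39), and DESeq2 is named in the submitters' processing notes. What was deposited as normalized counts proved to be log2 values (7.86 to 18.8) in which all pairs of a gene have the same sum. The transformation and the centring are not given in the sources used here, and the depth of the libraries is unknown.

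The fit used limma 3.58.1 under R 4.3.3 (eBayes with trend, replicate number as a block, 3 residual degrees of freedom), with Benjamini-Hochberg adjustment over 15039 genes. The block follows the replicate numbers of the labels and the centring. The sources do not say what the mice of a pair had in common, and the p-values measure the spread between these pairs. The 8 genes and the lists were chosen with earlier results of these data known. Named are the 8 genes and their measured relatives, the called genes and the 3 largest differences of each signaling list, the cholinergic markers measured, the 2 largest differences of every other marker list, *Rnf146*, and the 5 genes nearest to *Ngfr* and to *Bdnf*. The further interneuron markers and *Slc17a7* were named after their values were seen. Some genes that this rule covers are not reported here.

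The alternatives were no block, median centring, quantile normalization, leaving out genes with means under the 0.25 quantile, eBayes without trend or robust, array weights, an adjusted p of 0.05 and each pair left out in turn. Genes were placed with GENCODE vM39 (GRCm39). In it the spans of all 8 genes overlap other annotated genes, for example that of *Bdnf* the antisense *Gm45346* and that of *Ngfr* the same-strand *Gm73698*. Whether exons overlap was not examined, and the reads of such genes may not be separated. Promoter windows come from RefSeq (GRCm38.p6 table), were found for 5 of the 8 genes, and each matched GRCm39 once.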

Additional observations from a re-analysis of the deposited data

How the results depend on the processing

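Without the replicate block, which treats the centred values as 8 independent libraries, *Bdnf* (-0.33, adjusted p = 0.033) and *Sort1* (-0.08, adjusted p = 0.038) passed the threshold, 3 neurotrophin genes, 34 list genes and 3226 of all genes were called, and the pairing otherwise changed no call among the 8 genes. With array weights, 7 list genes and 355 of all genes were called. At an adjusted p of 0.05 the counts were 0 neurotrophin genes, since *Ngfr* (0.39, adjusted p = 0.070) no longer passed, 2 list genes and 80 of all genes. With genes under the 0.25 quantile of means left out, *Ngfr* and *Ntf3* were not tested and 0 neurotrophin genes were called. Leaving out each pair in turn gave differences of 0.32 to 0.48 for *Ngfr* (adjusted p = 0.027 to 0.322) and -0.41 to -0.20 for *Bdnf* (adjusted p = 0.167 to 0.453), and the signs of *Ntrk2* (-0.02 to 0.05), *Ntrk3* (-0.05 to 0.07) and *Sorcs2* (-0.06 to 0.11) turned. The counts then ran from 0 to 1 for neurotrophin genes, 0 to 8 for list genes and 14 to 421 for all genes. Median centring, quantile normalization and the other prior variances changed no call among the 8 genes. With median centring, 5 list genes were called, *Npas4* (adjusted p = 0.098) among them. Without counts, the depth that limits *Ngfr* and *Ntf3* could not be given.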
